A study of Mus musculus with 8 samples.

Results

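STAT and IRF transcription factors carry interferon and cytokine signals from the cell membrane to the genome, and the genes described here are Stat2, Stat3, Irf1, Irf2, Irf5, Irf7 and Irf9. They were chosen by gene symbol from a list of 8 STAT and IRF genes, of which 7 were found among the 22520 protein-coding genes of the liver EC table, and Irf8 was not analysed here. Signals of 4 WT and 4 LRP1 eKO libraries were compared. All mice were of the C57BL/6 strain at postnatal day 14 and, by the genotypes of the study, homozygous for floxed LRP1 (LRP1 f/f). LRP1 eKO mice also carried Cdh5-CreER (LRP1 f/f; Cdh5-CreER+/-), a tamoxifen-inducible Cre recombinase driven by the promoter of the endothelial cadherin gene Cdh5, while their WT littermates did not (LRP1 f/f; Cdh5-CreER-/-). The loss of LRP1, a large endocytic receptor, and the presence of CreER therefore cannot be told apart in this comparison. Liver ECs had been captured with PECAM-1 antibody on magnetic beads, and the sample labels call them liver microvesicular cells. How many animals went into a library, and whether and when tamoxifen was given to the mice of these libraries, is not given in the sources used here.

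Type I interferons bind the receptor chains Ifnar1 and Ifnar2, which activate the Janus kinases Jak1 and Tyk2. These kinases phosphorylate STAT proteins, among them Stat2, which joins Irf9 in the complex ISGF3. ISGF3 binds a DNA element called the interferon-stimulated response element (ISRE) and turns on antiviral genes, among them the genes of its own subunits and Irf7. Irf7 and Irf5 act at the other end of the loop, as they are activated by sensors of foreign nucleic acid and then induce interferon genes. Irf1 and Irf2 bind similar elements, with Irf1 mainly an activator and Irf2 mainly a repressor. Interferon gamma acts on an element called the gamma-activated site (GAS), and Stat3 is the main STAT of the interleukin-6 family. In liver, these pathways are known for antiviral defence and, through Stat3, for the acute-phase response of hepatocytes.

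The bases before the start of each gene were searched for these elements, because several members are known to be targets of the same factors. RefSeq promoters on GRCm38.p6 were found for all 7 members, with 9 windows, as Irf9 and Irf1 each have a pair of annotated starts. The ISRE was searched as GAAA, any 2 bases and GAAA again, and the GAS element as TTCNNNGAA, on both strands and in the 250 bases before a start. Of 32851 promoter windows in the RefSeq table, 2.98% held the ISRE letters and 7.02% the GAS letters. Matches were found for Stat2, Irf1 and Irf2, and the windows are shown because these members differ in their change, with the matched bases in capitals and the sequence in the direction of the gene.
Stat2, ISRE letters on the opposite strand, chr10:128270251-128270310: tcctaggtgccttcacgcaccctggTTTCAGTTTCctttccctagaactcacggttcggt
Irf1, GAS letters, chr11:53769899-53769957: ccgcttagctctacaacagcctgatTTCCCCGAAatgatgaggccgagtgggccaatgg
Irf2, ISRE letters and then GAS letters, chr8:46739495-46739554: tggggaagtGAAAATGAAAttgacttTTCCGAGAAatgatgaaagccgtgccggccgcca
Between the matched bases and the annotated start lie 212 bases in Stat2 and 81 bases in Irf1, counted to its first start. In Irf2, 231 bases follow the ISRE letters and 215 the GAS letters, with 7 bases between them, and the window overlaps an annotated exon of Gm16675, a non-coding gene on the opposite strand. The windows of Irf7, Irf9, Irf5 and Stat3 held neither set of letters. A match is a description of the letters and does not show that a factor binds there.

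The authors deposited a quantile-normalized signal, which gives the libraries nearly the same distribution of values, so that the depth of each library is unknown. Differences below are LRP1 eKO minus WT on the scale log2(signal + 1), and a gene was called at a limma adjusted p below 0.05 over 11391 genes, which reached a signal of 1 in 4 or more of the 8 libraries. The median difference of all tested genes was -0.009. The signal of Lrp1 was 56.2 to 85.1 in WT and 2.16 to 6.01 in LRP1 eKO libraries, a difference of -3.66 (limma adjusted p = 2.8e-06), in the direction of the labels. WT replicate 4 was the farthest library from the WT median for 62.0% of genes, and LRP1 eKO replicate 2 was the farthest from the LRP1 eKO median for 37.5%. Macrophage and Kupffer cell markers differed most among the libraries. The summed signal of the 15 markers was 114 to 225 in WT libraries and 748, 53.7, 685 and 402 in LRP1 eKO replicates 1 to 4, and all 10 tested markers had higher LRP1 eKO means, with a median log2 difference of 1.18. By limma 1 of the 10, Csf1r, was called higher, against 19.0% of all tested genes. This count was 10 without LRP1 eKO replicate 2, 9 with array weights and 0 without any of the other 7 libraries. No macrophage marker was at 0 in all libraries, but Clec4f and Timd4, which mark Kupffer cells, were listed at 0 in all WT libraries. For Pecam1, on which the cells were captured, WT libraries gave 2.09 ± 0.416 and LRP1 eKO libraries 3.02 ± 0.911 (SD, n = 4 each). The 12 pan-endothelial markers summed to 50.9 to 53.3 in WT and 59.5 to 83.7 in LRP1 eKO libraries, with 3 of 8 tested markers called higher, against 19.0% of all tested genes. The 10 markers of liver sinusoidal ECs summed to 14.4 to 16.9 in WT and to 15.8 to 37.6 in LRP1 eKO libraries. The 5 tested ones had a median log2 difference of 0.856, with 2 called higher, against 19.0% of all tested genes. Oit3, 1 of the 5, was below a signal of 1 in every WT library and was tested only through the LRP1 eKO libraries. Its place among the 5 was thus set by the difference itself. Without LRP1 eKO replicate 2, 5 pan-endothelial and 5 sinusoidal markers were called higher, against 1964 of all 11391 tested genes. None of the pan-endothelial markers was at 0 in all libraries. Among them, Tek, Erg, Cldn5 and Robo4 did not reach a signal of 1 in 4 libraries and were not tested. Markers of hepatic stellate cells and fibroblasts summed to 2757 to 3148 in WT and 2802 to 3312 in LRP1 eKO libraries. These sums were far above those of the pan-endothelial markers in every library, so that genes that mark cells other than ECs had high signals in both groups. The share of ECs in the libraries was not tested. The 10 dendritic cell markers summed to 5.45 to 6.86 in WT and to 5.89 to 8.84 in LRP1 eKO libraries. Flt3, Cd209a and Siglech were listed at 0 throughout, while Zbtb46 was detected in every library and Cadm1 was called higher, by 0.55 (limma adjusted p = 0.0449), a call that was lost without any library other than LRP1 eKO replicate 2. The 10 lymphocyte markers summed to 0.26 to 0.828 and 0.388 to 0.71, with Cd79b, Cd3g and Cd8a at 0 throughout and Lck detected in every library. The 12 NK cell and neutrophil markers summed to 0.812 to 1.97 in WT and to 1.49 to 3.67 in LRP1 eKO libraries, with Ncr1, Gzma, Ly6g and Retnlg at 0 throughout. The only tested marker of this list was called higher, by 0.662, against 19.0% of all tested genes. The part of these cells in the results below was not tested. In such bulk samples, fewer cells of a type and less RNA per cell cannot be told apart.

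Stat2, Irf9 and Irf7 rose in LRP1 eKO libraries, Irf1 fell, and differences of Irf5, Irf2 and Stat3 did not pass the threshold. Thus 3 of the 7 members were called higher, against 19.0% of all tested genes, and 1 was called lower, against 22.2%. The study required a change of at least 2-fold by edgeR, and here the 2-fold threshold was set on the log2(signal + 1) scale. With it as well, 2 members, Irf7 and Stat2, were called higher, against 0.869% of all tested genes, and 0 were called lower, against 0.79%. Irf9 lay at that threshold and made the count 3 with a pseudocount of 0.1, with array weights, and when any of 4 libraries (replicates 1 and 4 of WT, replicates 1 and 2 of LRP1 eKO) was dropped. With a pseudocount of 5 the count was 1, Irf7. The groups did not overlap for the same 4 called members, nor for 42.6% of all tested genes. The median difference of the members was 0.058.

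**Figure D1:**
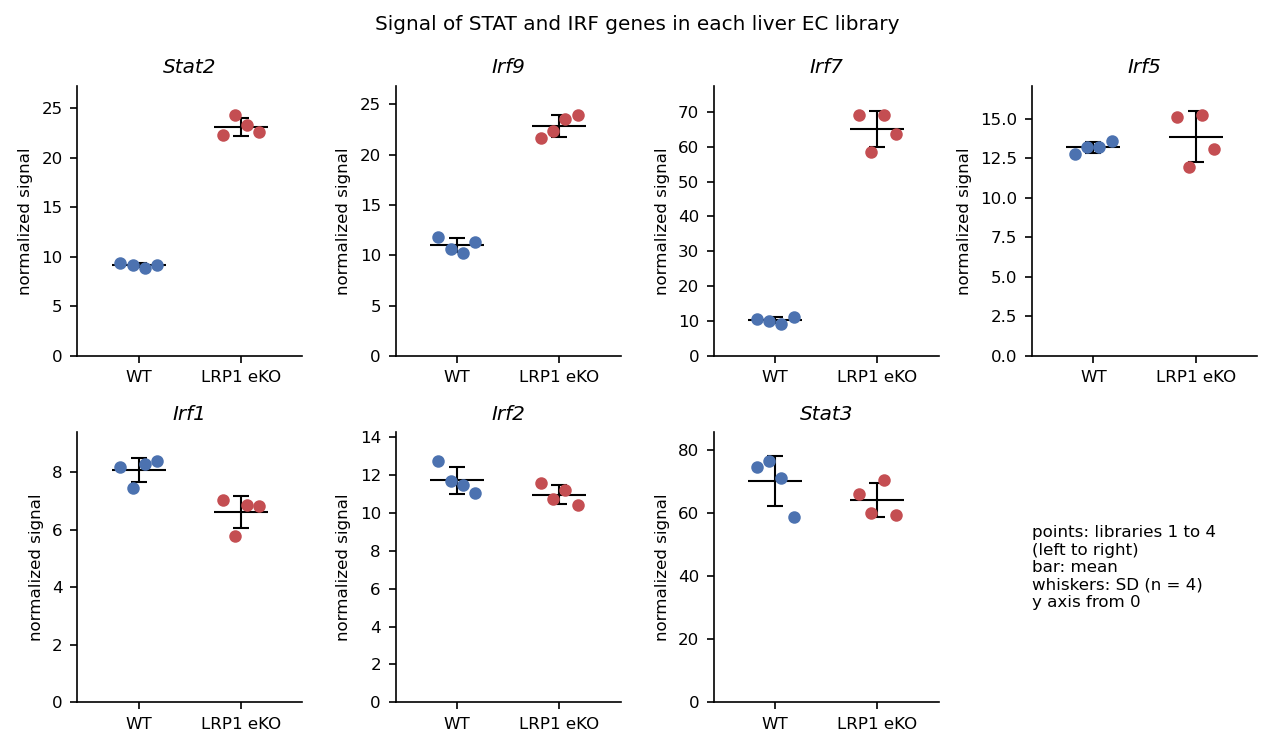
Quantile-normalized signal (y axis, from 0) of the 7 STAT and IRF genes in WT and LRP1 eKO liver EC libraries; each point is 1 library, the bar is the mean and the whiskers are the SD (n = 4 each). Stat2, Irf9 and Irf7 are higher in each LRP1 eKO library than in any WT library, Irf1 is lower, and the groups overlap for Irf5, Irf2 and Stat3.

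Both genes of the ISGF3 complex among the members, Stat2 and Irf9, had more than 2 times the WT signal in LRP1 eKO libraries. Stat2 supplies the transcriptional activation domain of ISGF3, and WT replicates 1 to 4 gave signals of 9.41, 9.18, 8.92 and 9.16, whereas LRP1 eKO replicates 1 to 4 gave 22.3, 24.3, 23.3 and 22.6. The WT libraries lay close together, with an SD of 2.17% of the mean, and the groups were far apart. This took Stat2 from a mean of 9.17 ± 0.199 to 23.1 ± 0.912 (SD, n = 4 each), a ratio of 2.52. The log2 difference was 1.25 (standard error 0.047, limma adjusted p = 1.15e-07), and an exact two-sided permutation test gave p = 0.0286, the smallest value that 4 libraries against 4 allow. Stat2 lies on chromosome 10 of GRCm38 from 128270559 to 128292849 on the plus strand, 649411 bases from Lrp1, and none of its exonic bases are shared with another annotated gene.

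Irf9 is the DNA-binding subunit that gives ISGF3 its specificity, and its WT signals, replicates 1 to 4, were 11.8, 10.6, 10.2 and 11.3. In LRP1 eKO replicates 1 to 4, the signals of Irf9 were 21.7, 22.3, 23.6 and 23.9. The lowest LRP1 eKO library was thus well above the highest WT library. The mean of Irf9 went from 10.99 ± 0.709 to 22.9 ± 1.07 (SD, n = 4 each), a ratio of 2.08. On the log2(signal + 1) scale the difference was 0.995 (standard error 0.058, limma adjusted p = 1.89e-06), just under the 2-fold threshold, and it was 1.05 with a pseudocount of 0.1. Irf9 is on chromosome 14 from 55603571 to 55610030 and shares 2.28% of its exonic bases with Rnf31 on the same strand, which was also higher, by 0.44 (limma adjusted p = 0.00275). The division of reads in that stretch is not stated for the table.

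Irf7, often called the master regulator of type I interferon genes, showed the largest change of the 7 genes. WT replicates 1 to 4 had Irf7 signals of 10.7, 9.99, 9.07 and 11.2, against 69.1, 58.4, 69.1 and 63.5 for LRP1 eKO replicates 1 to 4. Every LRP1 eKO library was more than 5 times the highest WT library. The mean of Irf7 rose from 10.2 ± 0.928 to 65.0 ± 5.14 (SD, n = 4 each), a ratio of 6.35. Its log2 difference was 2.55 (standard error 0.075, limma adjusted p = 1.67e-08), which ranked 10 among the increases of the 11391 tested genes. Leaving out each library in turn gave differences between 2.50 and 2.60. Irf7 lies on chromosome 7 from 141262706 to 141266481 on the minus strand, and 1.19% of its exonic bases overlap Phrf1 on the plus strand, for which a difference was not detected (-0.0009, limma adjusted p = 0.994).

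Irf5, which is activated downstream of Toll-like receptors in macrophages and dendritic cells, did not share this pattern. For Irf5, WT replicates 1 to 4 were at 12.8, 13.2, 13.2 and 13.6, and LRP1 eKO replicates 1 to 4 at 15.1, 11.9, 15.2 and 13.1. LRP1 eKO replicates 1 and 3 were above all WT libraries, while LRP1 eKO replicate 2 was below them, so that the groups overlapped. The SD was 2.60% of the mean in WT and 11.6% in LRP1 eKO libraries. The log2 difference of Irf5 was 0.058 (95% interval -0.11 to 0.227, limma adjusted p = 0.561). LRP1 eKO replicates 1 and 3 also had the highest summed macrophage signal and LRP1 eKO replicate 2 the lowest, as given above. With the mean of the macrophage markers as a covariate the difference of Irf5 was -0.042 (limma adjusted p = 0.628). The part of macrophage RNA in the signal of Irf5 was not tested. Of the exonic bases of Irf5, 14.1% overlap Tnpo3 on the opposite strand, and whether strand was used in counting is not stated for the table. The difference of Tnpo3 was 0.05 (limma adjusted p = 0.393).

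**Figure D2:**
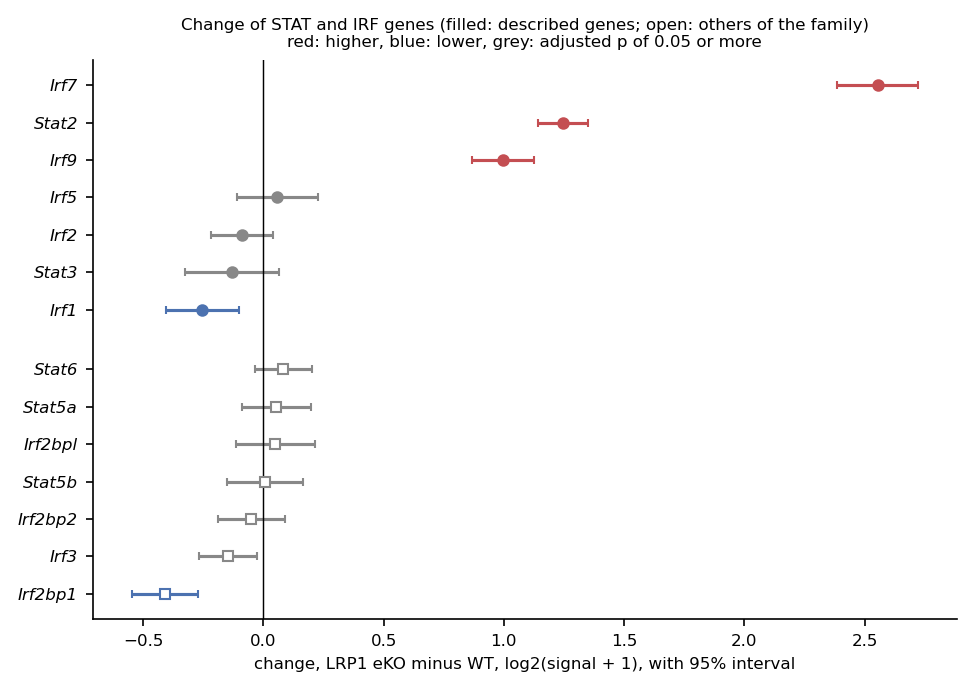
Difference between LRP1 eKO and WT libraries (x axis, log2(signal + 1), points, with 95% intervals from limma) for the 7 members (filled) and for 7 other tested genes of the STAT, IRF and IRF2-binding families (open). Irf7 is at 2.55, Stat2 at 1.25 and Irf9 at 0.995, while Irf1 (-0.254) and Irf2bp1 (-0.41) are called lower and the other intervals lie near 0.

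The activator Irf1 was modestly lower in LRP1 eKO libraries, and its antagonist Irf2 showed no difference that passed the threshold. The Irf1 signal was 8.16, 7.46, 8.28 and 8.37 for WT replicates 1 to 4, compared with 7.02, 5.78, 6.84 and 6.82 for LRP1 eKO replicates 1 to 4. All LRP1 eKO libraries were below all WT libraries, and LRP1 eKO replicate 2 was the lowest. Its mean went from 8.07 ± 0.416 to 6.62 ± 0.565 (SD, n = 4 each), a ratio of 0.82. The log2 difference was -0.254 (standard error 0.068, limma adjusted p = 0.0144). It was -0.199 when LRP1 eKO replicate 2 was left out (limma adjusted p = 0.0283). Irf1 is on chromosome 11 from 53770014 to 53778374, and it shares 3.40% of its exonic bases with the gene model Gm17334 on the opposite strand.

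Irf2 was measured at 12.7, 11.7, 11.5 and 11.02 for WT replicates 1 to 4, and at 11.6, 10.7, 11.2 and 10.4 for LRP1 eKO replicates 1 to 4. The ranges overlapped, with 2 LRP1 eKO libraries inside the WT range. The difference of Irf2 was -0.087 (95% interval -0.216 to 0.041, limma adjusted p = 0.245). It overlaps the interval of Irf1, which was -0.405 to -0.103. Irf2, on chromosome 8 from 46739732 to 46847458, holds both an ISRE and a GAS match in the window shown above, while Stat2, with an ISRE match, rose.

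Stat3, which transmits signals of interleukin-6 and related cytokines, was not called. Stat3 signals of WT replicates 1 to 4 were 74.8, 76.5, 71.3 and 58.9, while those of LRP1 eKO replicates 1 to 4 were 66.3, 60.2, 70.7 and 59.4. WT replicate 4 was the lowest of all 8 libraries and lay apart from the other WT libraries, all of which were above the LRP1 eKO libraries. The difference of Stat3 was -0.129 (95% interval -0.324 to 0.066, limma adjusted p = 0.259). Without WT replicate 4 it was -0.21 (limma adjusted p = 0.0259), and Stat3 was then called lower. Stat3 lies on chromosome 11 from 100885098 to 100939540 on the minus strand and shares 0.756% of its exonic bases with its neighbour Stat5a.

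The changes of the members were also compared with each other within each library, for 4 pairs that were chosen after the values were seen. Adjustment over these 4 pairs does not correct for that choice, so the p-values of the pairs are descriptive. The log2(signal + 1) of Irf7 exceeded that of Stat2 by 0.142 ± 0.102 across WT and by 1.45 ± 0.157 across LRP1 eKO libraries (SD, n = 4 each), so that Irf7 changed by 1.31 more than Stat2 (exact two-sided permutation p = 0.0286, 0.0381 after Benjamini-Hochberg adjustment over the 4 pairs). Irf7 changed by 1.56 more than Irf9, with the same p-values from the exact permutation test. Stat2 changed by 0.252 more than Irf9, also with no overlap of the groups and the same exact p-values. The difference between Irf1 and Irf2 was -0.486 ± 0.113 across WT and -0.653 ± 0.101 across LRP1 eKO libraries (SD, n = 4 each, exact permutation p = 0.0857, also 0.0857 adjusted), and a separate change of the pair was not shown.

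Of 9 other STAT, IRF and IRF2-binding genes that were examined, 7 were tested and 1 was called, against 41.2% of all tested genes in either direction. Irf2bp1, a corepressor that binds Irf2, was lower by 0.41 on the log2 scale, at 8.18 to 9.28 in WT and 6.02 to 6.87 in LRP1 eKO libraries (limma adjusted p = 0.000669). Irf3, the partner of Irf7 in the first induction of interferon beta, had means of 45.7 ± 3.31 and 41.2 ± 0.555 (SD, n = 4 each) and a limma adjusted p of 0.0542, which ranged from 0.015 to 0.125 with 1 library left out. Stat5a, Stat5b, Stat6, Irf2bp2 and Irf2bpl had differences between -0.051 and 0.082 and were not called. Stat4 and Irf4, which are used mainly by lymphocytes, were below the filter, with signals of at most 0.0327 in any library.

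Genes that act before and after these factors were taken from lists written by hand, in which Usp18, Socs3 and Csf1r each stand more than once. Among interferon ligands, receptors and Janus kinases, 3 of 12 tested genes were called higher, near the 19.0% of all tested genes, and 9 were not called. Jak1, the kinase shared by all interferon receptors, went from 32.6 ± 2.29 to 42.4 ± 1.71, and Jak2 from 9.45 ± 0.593 to 11.2 ± 0.539 (SD, n = 4 each), with limma adjusted p-values of 0.000867 and 0.0155. Ifngr2, a chain of the interferon gamma receptor, differed by 0.178 (limma adjusted p = 0.0375). The receptor genes Ifnar1 and Ifnar2 differed by 0.03 and -0.215 and did not pass the threshold. Transcripts of the ligands were at or near 0. Ifng and the interferon lambda genes Il28a and Il28b were listed at 0 in all 8 libraries. Ifnb1 was listed at 0 in 6 libraries, and at 0.0405 and 0.0465 in LRP1 eKO replicates 2 and 4. With the macrophage marker mean as a covariate, 1 gene of this list was called higher and 2 lower. With array weights 6 were called higher and 1 lower, and 1 was called lower when WT replicate 4, LRP1 eKO replicate 1 or LRP1 eKO replicate 3 was dropped.

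Among 18 tested sensors and kinases that act upstream of IRFs, 7 were called higher and 2 lower, against 19.0% and 22.2% of all tested genes. The RNA sensors of the RIG-I family showed the smallest adjusted p-values of this list. Ddx58, which encodes RIG-I, rose from 12.7 ± 0.787 to 28.4 ± 1.11 and Ifih1, which encodes MDA5, from 3.99 ± 0.314 to 11.6 ± 1.09 (SD, n = 4 each), with limma adjusted p-values of 6.86e-07 and 1.61e-06. Dhx58 differed by 1.25 (limma adjusted p = 6.04e-06). Ikbke, a kinase that phosphorylates Irf7, rose by 0.332 (limma adjusted p = 0.00347), whereas its relative Tbk1 had a difference of -0.121 and was not called. The adaptor genes Myd88 and Tmem173 (STING) were called lower, with differences of -0.167 and -0.323 (limma adjusted p = 0.0401 and 0.000807). From 1 to 4 genes of this list were called lower under the alternatives of the processing, with 1 gene left when WT replicate 1, WT replicate 2 or any of LRP1 eKO replicates 1 to 3 was dropped. The genes named in this and the next paragraphs beyond the rule for naming were chosen after their values were seen.

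Of 30 genes on the ISGF3 target list, 28 passed the filter on low values. All 28 were called higher, against 19.0% of all tested genes, with differences from 0.34 to 3.55. The list was chosen with earlier results of these data known, so that this count is not an independent test. Mx2, Oas2, Oas3, Rsad2 and Zbp1 were below a signal of 1 in every WT library and passed the filter through the LRP1 eKO libraries. Ifi44 and Ifit3b reached 1 in fewer than 4 WT libraries and so also needed the LRP1 eKO libraries. The place of all these genes among the 28 was thus set by the difference itself. With a mean signal of at least 5 over all 8 libraries as the filter, 20 genes were called higher. This filter too can be passed through the LRP1 eKO libraries, as by Ifi44 and Ifit1, with WT means of 0.94 and 1.78. The genes of the list act in viral RNA sensing, translation block and ISG15 conjugation. Ifi44 rose from 0.94 ± 0.112 to 16.8 ± 1.3, Ifit1 from 1.78 ± 0.293 to 28.4 ± 1.25 and Ifit3 from 3.16 ± 0.0718 to 24.5 ± 1.74 (SD, n = 4 each), each with a limma adjusted p of 2.62e-09. The 28 genes were also called higher with the replicate block and with the macrophage marker mean as a covariate. The mean log2(signal + 1) of this list was above the WT mean by 1.6, 1.53, 1.61 and 1.61 in LRP1 eKO replicates 1 to 4. The part of macrophage RNA in these differences was not tested beyond these values.

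Of 13 tested genes on the IRF1 target list, 9 were called higher and 1 lower, against 19.0% and 22.2% of all tested genes. Irf1 itself was lower. Gbp6, 1 of the 13, was below a signal of 1 in every WT library and passed the filter through the LRP1 eKO libraries. Psmb9, which was not called, also reached 1 in fewer than 4 WT libraries. B2m, the light chain of class I MHC molecules, went from 443 ± 3.29 to 806 ± 32.9, Gbp3 from 2.33 ± 0.456 to 15.1 ± 2.19 and Gbp2 from 8.29 ± 0.699 to 21.2 ± 1.55 (SD, n = 4 each), with limma adjusted p-values of 5.24e-07, 9.72e-07 and 1.59e-06. Vcam1, which binds leukocytes to endothelium, was called lower, with a log2 difference of -0.277 (limma adjusted p = 0.0389), and was not called when any of WT replicates 1 to 3 or LRP1 eKO replicate 2 or 4 was dropped. Many genes of this list are known to respond to ISGF3 as well.

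The 23 tested genes of the STAT3 target list went both ways, with 7 called higher and 7 lower, against 19.0% and 22.2% of all tested genes, and a median of 0.052. The largest decreases were those of Fgg, a fibrinogen chain, from 6.15 ± 1.01 to 0.946 ± 0.202, and of the haptoglobin gene Hp, from 35.5 ± 5.005 to 13.4 ± 1.13 (SD, n = 4 each), with limma adjusted p-values of 2.8e-06 and 5.97e-06. Both are secreted by hepatocytes, and 4 of 5 tested hepatocyte markers were called lower by at least 2-fold, against 0.79% of all tested genes. The remaining marker was called higher with no fold required, against 19.0%. The 10 hepatocyte markers summed to 156 to 180 across WT and to 155 to 173 across LRP1 eKO libraries, and none of them was at 0 in all libraries. Such sums are weighted to the markers of highest signal. The 5 tested ones had a median log2 difference of -1.59, from -2.055 to 0.592. The mean log2(signal + 1) of the 10 was 2.51 to 2.77 in WT and 1.86 to 1.97 in LRP1 eKO libraries. The part of hepatocyte RNA in these decreases was not tested. Myc rose from 15.2 ± 0.852 to 23.7 ± 1.03 (SD, n = 4 each, limma adjusted p = 2.64e-05). Socs3, the feedback inhibitor that Stat3 induces, fell by 0.532 on the log2 scale (limma adjusted p = 0.0047).

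Among 18 tested feedback inhibitors of JAK-STAT signaling, 4 were called higher and 3 lower, which is near the 19.0% and 22.2% of all tested genes. Usp18, which blocks Ifnar2 and removes ISG15 from proteins, rose from 1.62 ± 0.283 to 25.2 ± 1.15, and Ptpn11, which encodes the phosphatase SHP2, from 30.8 ± 2.87 to 38.8 ± 1.39 (SD, n = 4 each), with limma adjusted p-values of 3.7e-09 and 0.00385. Socs5 fell from 28.9 ± 1.82 to 22.3 ± 0.419 (SD, n = 4 each, limma adjusted p = 0.000602). Socs1, the main inhibitor of interferon gamma signaling, was below the filter, with means of 0.672 and 0.63. The number of these inhibitors called higher was 2 without WT replicate 3 and without each of LRP1 eKO replicates 1, 2 and 3. Of 11 tested transcription factors of myeloid cells and their receptor Csf1r, 5 were called higher and 2 lower, against 19.0% and 22.2% of all tested genes. The number called higher was 8 without LRP1 eKO replicate 2, 2 without LRP1 eKO replicate 3 and 3 without any other library. Klf4 rose from 8.9 ± 0.297 to 16.4 ± 2.41 and Zeb2 from 7.8 ± 1.61 to 15.3 ± 1.3, whereas Maf fell from 43.9 ± 3.52 to 30.8 ± 1.71 (SD, n = 4 each), with limma adjusted p-values of 9.78e-05, 0.000559 and 0.000363. Klf4 was highest, at 19.9, in LRP1 eKO replicate 2, the library with the lowest summed macrophage signal. Cebpe, Ikzf1, Batf3, Bach2 and Spic of this list were below the filter. Whether these changes lie in myeloid cells was not tested.

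**Figure D3:**
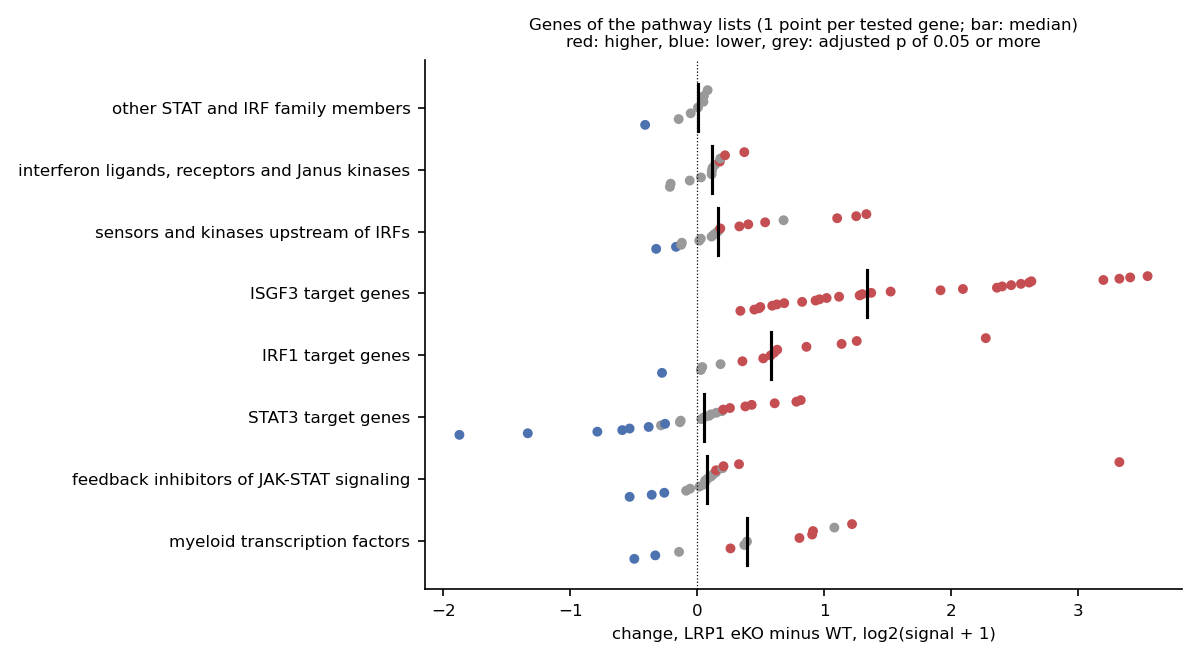
Difference between LRP1 eKO and WT libraries (x axis, log2(signal + 1)) for each tested gene (points) of the 8 pathway lists, with the median of each list as a bar; red points were called higher, blue points lower and grey points not called. The 28 tested ISGF3 target genes are to the right of 0, while STAT3 target genes lie on both sides with 7 called in each direction. The lists were chosen with earlier results of these data known.

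The genes nearest to each member were found by the mean absolute difference, over the 8 libraries, of log2(signal + 1) relative to the WT mean of each gene. By this measure a near gene has nearly the same difference between groups as the member. The differences and calls of the nearest genes thus follow from how they were chosen. The nearest to Irf7 were Rtp4 (0.06), Apol9b (0.078) and Ifit3 (0.099), with differences between groups of 2.63, 2.59 and 2.61. Among the nearest to Irf9 were Adar (0.062) and Dtx3l (0.067), and nearest to Stat2 were Parp9 (0.043), Tnc (0.059) and Itgb4 (0.067). The neighbours of these members therefore include interferon-induced genes, such as Parp9, Dtx3l and Adar, beside the matrix gene Tnc and the integrin gene Itgb4. Irf1 lay nearest to Casp12 (0.022) and Tspan3 (0.029), with log2 differences of -0.273 and -0.249. For Irf5, Irf2 and Stat3 the nearest genes were Serpinf1 (0.023), Vasp (0.026) and St3gal1 (0.037), and none of these was called (limma adjusted p = 0.708, 0.0984 and 0.144). The next nearest were Man2b1 and Atp13a2 for Irf5, Dazap1 and Smad5 for Irf2, and Col1a2 and Hjurp for Stat3.

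**Figure D4:**
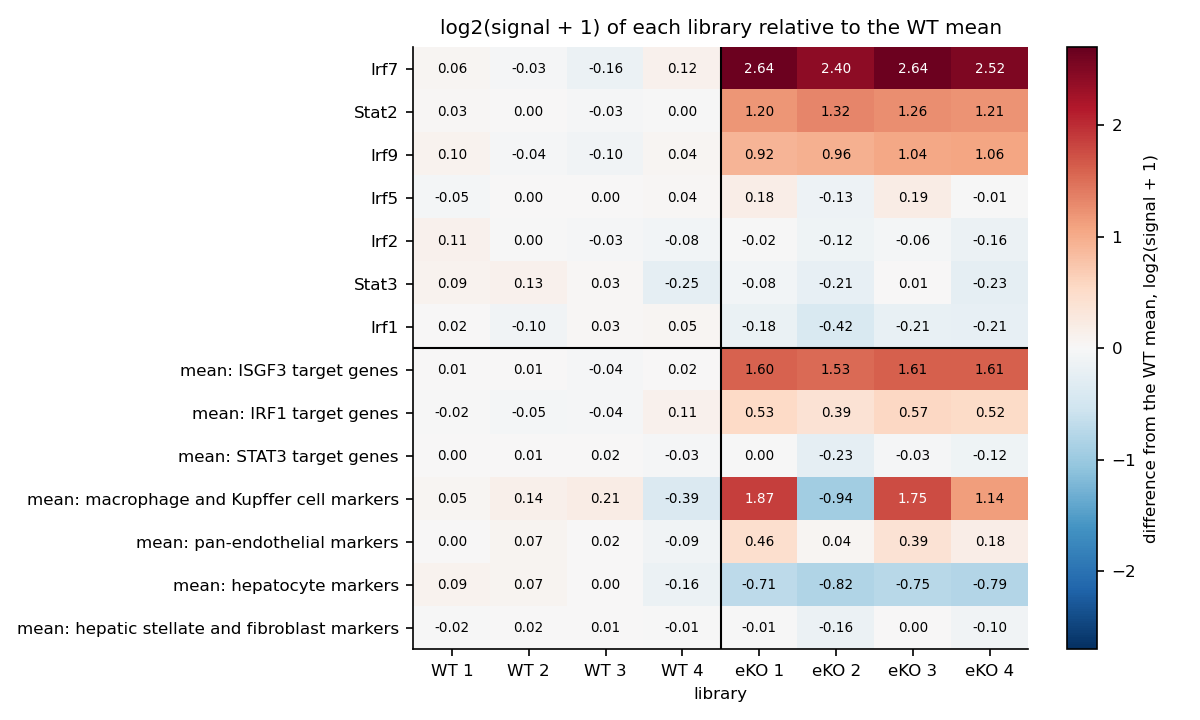
Difference of log2(signal + 1) from the WT mean (color and printed value) in each library (columns) for the 7 members and for the mean of 7 gene lists (rows). Irf7, Stat2, Irf9 and the ISGF3 target genes are at like values in LRP1 eKO replicates 1 to 4, while the macrophage markers range from -0.936 in LRP1 eKO replicate 2 to 1.87 in LRP1 eKO replicate 1.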

How the data were processed

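The authors deposited a quantile-normalized signal for each gene and library, and the unit before that step is not stated. The submitters' processing notes list TopHat2, Cufflinks and mm10, whereas the methods of the study describe STAR, featureCounts and edgeR, and which of them made the table is not given. No counts were used, and p-values measure the spread between 4 libraries a group, which may be technical, since the labels do not say that each came from a separate animal. Libraries were matched to groups by their labels. log2(signal + 1) was fitted with limma 3.58.1 in R 4.3.3 on 11391 genes, with genotype as the only term, a trend of the variance with the mean, and adjustment by Benjamini-Hochberg over all tested genes. Single genes were also compared with exact permutation tests. The calculation was tested on simulated data. The members and lists were chosen with earlier results of these data known. The text names every member, Lrp1, tested genes with the 3 smallest adjusted p-values of a list, the other family genes and the 3 nearest genes of each member, except for a few genes that are not reported here. Of 242 list genes, 239 were matched by symbol or gene identifier. Positions came from GENCODE M21. The numbers of the libraries were checked as pairs and did not pair them, as correlations across genes of the deviations of same-numbered libraries were -0.086, -0.13, 0.178 and 0.038.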

Additional observations from a re-analysis of the deposited data

Results flagged for a closer look

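Dixon's test was applied to 16 groups of 4 libraries, those of the members and Lrp1, and 1 group held an outlying library, while about 0.8 such groups arise by chance. This was Irf1 in LRP1 eKO libraries, with the lowest signal in LRP1 eKO replicate 2. The gap to the nearest library was 0.835 of the range of the group, just past the 95% critical value for 4 libraries.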

How the results depend on the processing

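Irf7, Stat2, Irf9 and Irf1 kept their direction and stayed past the threshold under every alternative run: a pseudocount of 0.1 or 5, the table without a filter or only genes whose mean signal reached 5, no trend, robust moderation, array weights, trimmed-mean centring, the replicate block, the macrophage marker mean as a covariate, and leaving out each library in turn. The replicate block gave differences of 2.55 for Irf7 and 1.25 for Stat2 and changed no call of a member. Stat3 was called lower with array weights (-0.183, limma adjusted p = 0.0258) and, with 1 library left out, ranged from -0.21 to -0.087. The number of members called lower was then 2 with array weights and from 1 to 2 with 1 library left out. The difference of Irf5 turned to -0.042 with the macrophage covariate. With a 2-fold change required as well, 0 members were called lower by limma. With no fold required, 1 member, Irf1, was called lower (limma adjusted p = 0.0144). With 2-fold, the number of members called higher was 3 or 1 with a pseudocount of 0.1 or 5, and from 2 to 3 with 1 library left out. This range and those of the marker lists were computed after the data were seen. Of all tested genes, 99 were called higher and 90 lower with 2-fold. With no depth known, small differences such as those of Irf5 and Irf2 could not be set against counting error.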
